A study of Mus musculus with 12 samples.

Results

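Complement genes of mouse mesangial cells (MMC) were followed across wild-type (WT) and lncMGC-knockout cultures with and without TGF-β. The genes were 8 components and regulators chosen by symbol (C3, C4b, C1ra, C1s1, Cfb, Cd55, Cd59a and Serping1), and all 8 were found among the 25230 genes of the count tables. MMC are the contractile cells that hold the capillary loops of the kidney glomerulus together. They were grown from glomeruli sieved out of mouse kidneys, and the glomeruli were pooled. The 4 groups were WT MMC under serum depletion (WT-SD), WT MMC given TGF-β (WT-TGF), lncMGC-knockout MMC under serum depletion (KO-SD) and lncMGC-knockout MMC given TGF-β (KO-TGF), with 3 libraries in each group, TGF-β at 10 ng/ml and 24 hours as the labelled time. The knockout cells came from KO5, a single mouse line made with Cas9 and a pair of guide RNAs around the start site of the long non-coding RNA lncMGC in C57BL/6J embryos. The labels give no age and no number of mice, and do not say whether the libraries of a group came from separate cultures, so p-values measure the spread between these libraries and the genotype cannot be told apart from the cultures it was measured in. lncMGC itself was not analysed here, which leaves the deletion unchecked in these libraries, and KO stands for the label of a library throughout. The paper reports the KO5 deletion from Sanger sequencing and found lncMGC not expressed in KO5 MMC.

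Complement is a protein cascade that tags and lyses targets. In its classical pathway, C1q that has bound an immune complex switches on the proteases C1r and C1s, which cut C4 and C2 into an enzyme that cleaves C3. Factor B builds the corresponding enzyme of the alternative pathway on C3 fragments. The C1 inhibitor, encoded by Serping1, blocks C1r and C1s, CD55 breaks up the enzymes that cleave C3, and CD59 stops the pore of terminal components from forming in the host membrane. The liver makes most complement in plasma and resident kidney cells make some, and complement deposits in the mesangium mark several glomerular diseases.

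Library depth was even, from 19898050 to 22827706 counts on genes. Levels are given as CPM, counts scaled to a common library size by TMM, and between genes as RPKM, which is CPM per kilobase of exon. A gene was tested when RPKM was above 1 in at least 1 library, which left 11479 genes, and was called at FDR <5% (edgeR, quasi-likelihood; adjusted p by Benjamini-Hochberg over all genes tested). Fold changes are given on the log2 scale (log2FC) with the standard error (SE) or 95% interval of the fit. Of the 8 complement genes, 7 passed the limit. C4b did not, and its tests are from a wider fit, of the 18565 genes that had any count. Of 10 markers of mesangial and smooth muscle cells, 9 had above 3 counts in a library of each group, and their summed level had medians of 2660 CPM in WT-SD, 5825 in WT-TGF, 4946 in KO-SD and 10749 in KO-TGF. The 12 markers of macrophages, cells that also express complement genes, were low and moved with both treatment and genotype: their summed level was 35.3 to 38.2 CPM in WT-SD, 19.6 to 23.0 in WT-TGF, 8.22 to 9.77 in KO-SD and 2.35 to 2.73 in KO-TGF. The summed markers of other kidney cells moved as well. Those of tubular epithelium had medians of 69.2 CPM in WT-SD, 18.3 in WT-TGF, 13.8 in KO-SD and 4.22 in KO-TGF, those of glomerular endothelium 33.0, 20.3, 18.0 and 9.89 CPM, and those of podocytes 445, 453, 218 and 209 CPM. These sums rest on few genes. In each group, 3 of 6 tubular and 3 of 5 podocyte markers had above 3 counts in a library. Of 5 endothelial markers, 3 did in KO-SD and 2 in each other group. Of the 12 macrophage markers, 10 had above 3 counts in a library of WT-SD, 10 in WT-TGF, 4 in KO-SD and 3 in KO-TGF. Adgre1, C1qa, C1qb and C1qc had 0 counts in every KO library. Cd14 (131, 135 and 168 counts), Cd68 (26, 24 and 24), Csf1r (10, 14 and 14) and Lyz2 (10, 8 and 6) kept counts in KO-SD. In bulk RNA, fewer cells of a type and less RNA per cell cannot be told apart.

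The genes differ in how far single reads can place them. C1ra (NCBI gene 50909) and C1s1 (NCBI gene 50908) face each other on chromosome 6 of mm10, C1ra from 124512621 to 124523440 on the plus strand and C1s1 from 124530344 to 124542392 on the minus strand, with 6903 bases between them. Their copies C1rb and C1s2 and the related C1rl lie in the same stretch of 143 kb. C4b (NCBI gene 12268, 34728139 to 34743902) and Cfb (NCBI gene 14962, 34856374 to 34862514) share a stretch of 154 kb of chromosome 17 with C4a and C2, all within the major histocompatibility complex, and C3 (NCBI gene 12266, 57203967 to 57228136) lies farther along the same chromosome. Cd55 (NCBI gene 13136) is on chromosome 1 from 130429798 to 130465009 beside Cd55b. Cd59a (NCBI gene 12509) is on chromosome 2 from 104095753 to 104115410 beside Cd59b, and Serping1 (NCBI gene 12258) is on the same chromosome from 84765360 to 84775444. Of the distinct stretches of 51 bases, the read length, in the GENCODE transcripts of each gene, 50.4% for C1ra, 33.9% for C4b, 21.4% for C1s1, 7.9% for Cd55 and 3.7% for Cd59a also occur in another gene, for each of them mostly its named copy, and 0.0% do for C3, Cfb and Serping1. Reads with several alignments were not counted, so the levels of C1ra and C4b are the least certain. Cfb overlaps the GENCODE gene model Gm20547 on the same strand, which was not counted apart from it. Gene models that overlap a gene were left out of the search for shared stretches, so the 0.0% of Cfb does not cover Gm20547. The copies themselves had few counts: at most 17 for C4a, 21 for C1rb, 104 for C1s2, 2 for Cd55b and 4 for Cd59b in any library.

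Promoters were matched in RefSeq (GRCm38.p6, the assembly of mm10) for 5 of the 8 genes: C3, C1ra, C1s1, Cd55 and Cd59a. The 250 bases before and 50 after the start site of the 3 genes with the highest levels that fell with TGF-β in both genotypes, and of Cd59a, whose level moved least, are given here. Capitals mark matches on either strand to the motifs named GAS (TTCNNNGAA), ISRE (TTTC, any 2 bases, TTTC), NF-kappaB (GGG, any 5 bases, CC) and C/EBP (TTGCNNAA), and overlapping matches run together.
C3, chr17:57228087-57228386, minus strand: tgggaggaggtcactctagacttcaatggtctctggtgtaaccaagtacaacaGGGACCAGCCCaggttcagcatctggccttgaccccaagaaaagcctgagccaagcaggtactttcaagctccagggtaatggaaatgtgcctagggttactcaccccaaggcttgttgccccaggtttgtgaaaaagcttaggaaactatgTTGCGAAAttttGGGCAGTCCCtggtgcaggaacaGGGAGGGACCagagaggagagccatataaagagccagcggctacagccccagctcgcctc
C1ra, chr6:124512371-124512670, plus strand: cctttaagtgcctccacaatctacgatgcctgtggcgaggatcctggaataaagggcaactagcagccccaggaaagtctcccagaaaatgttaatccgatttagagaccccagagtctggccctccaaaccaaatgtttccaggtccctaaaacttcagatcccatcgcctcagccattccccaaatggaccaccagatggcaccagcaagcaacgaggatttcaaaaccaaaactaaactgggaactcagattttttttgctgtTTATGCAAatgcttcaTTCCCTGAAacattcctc
C1s1, chr6:124542310-124542609, minus strand: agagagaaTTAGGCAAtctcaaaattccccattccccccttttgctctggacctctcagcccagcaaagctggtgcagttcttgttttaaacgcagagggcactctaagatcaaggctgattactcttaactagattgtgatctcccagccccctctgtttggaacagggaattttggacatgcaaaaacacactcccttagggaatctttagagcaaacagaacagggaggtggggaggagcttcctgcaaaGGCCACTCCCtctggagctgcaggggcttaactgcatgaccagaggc
Cd59a, chr2:104095551-104095850, plus strand: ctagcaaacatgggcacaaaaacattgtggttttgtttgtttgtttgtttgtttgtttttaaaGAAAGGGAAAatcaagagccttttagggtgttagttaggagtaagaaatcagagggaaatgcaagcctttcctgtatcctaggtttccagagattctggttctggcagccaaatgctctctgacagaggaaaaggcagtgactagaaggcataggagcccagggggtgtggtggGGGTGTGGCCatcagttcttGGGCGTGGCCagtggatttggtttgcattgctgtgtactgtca
A C/EBP match was present in the promoters of C3 (45 bases before the start), C1ra and C1s1, and in 10.8% of the 32851 promoters of this length. C1s1 had 2 start sites, and the sequence given is that of the first. Its C/EBP match lay 242 bases before that start, and the promoter of the second start held 0. C3 had 4 NF-kappaB matches, of which a pair overlapped, C1s1 had 1 and Cd59a had 2, while 50.8% of all promoters held that motif. The GAS motif was matched in C1ra (8.3% of promoters) and the ISRE motif in Cd59a (3.4%). Cd55 had 4 NF-kappaB matches and 2 of the SMAD box CAGAC, which C1ra held once and which 49.6% of promoters hold, and the AP-1 motif TGANTCA was matched in none of the 5 genes (7.8% of promoters). These are matches of letters, not bound sites.

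The level per length spanned over 3 orders of magnitude between the complement genes. In WT-SD, C3, the component on which all pathways meet, was at 273 ± 2.48 RPKM (SD, n = 3) and ranked 46 among the 11479 genes tested. C1s1 was at 167 ± 1.76 RPKM and ranked 105. C1ra (32.4 ± 0.417 RPKM) and Cd59a (17.2 ± 1.08 RPKM) stood above 90.1% and 77.5% of the genes tested. Serping1 (2.66 ± 0.0217 RPKM), Cd55 (1.94 ± 0.435), Cfb (1.19 ± 0.0823) and C4b (0.172 ± 0.0563) were low, and C4b stood above 0.636% of the genes tested. The order in WT-SD was thus C3, C1s1, C1ra, Cd59a, Serping1, Cd55, Cfb and C4b, and in none of the neighboring pairs did the mean ± SD ranges overlap. In KO-TGF, C3 was still highest at 74.3 ± 0.942 RPKM, Cd59a (18.2 ± 0.604) stood above C1ra (9.17 ± 0.374), and Serping1 (0.0918 ± 0.0691) could not be separated from C4b (0.0619 ± 0.0345) by their SDs.

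**Figure D1:**
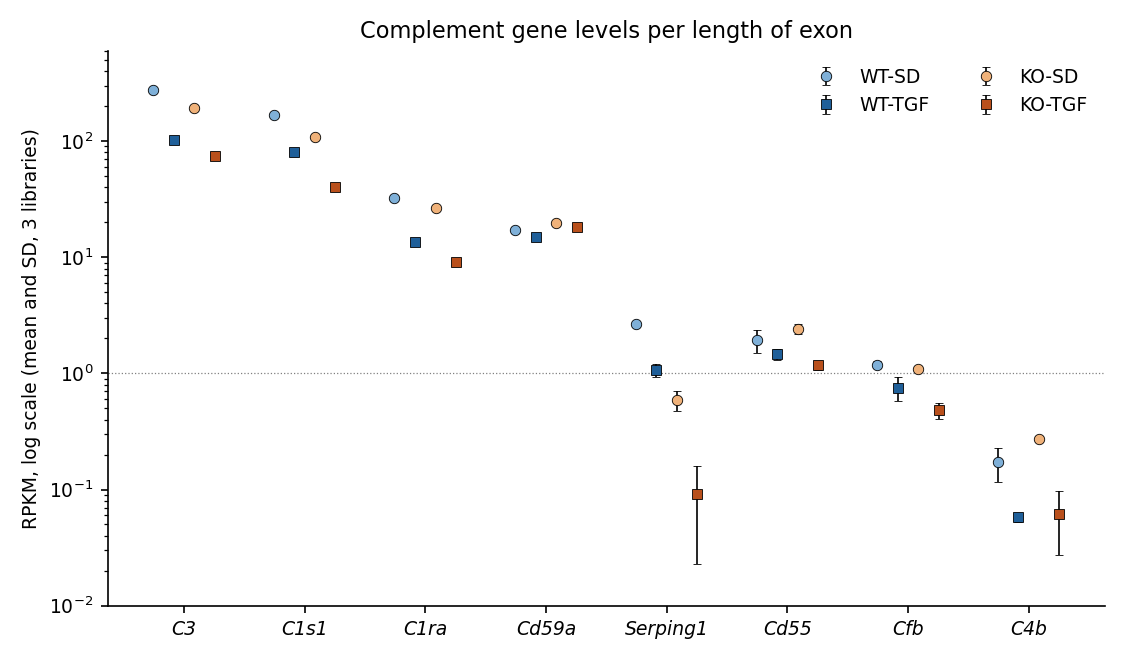
RPKM of each complement gene on a log axis in the 4 groups, as the mean and SD of 3 libraries, with a dotted line at the test limit of 1 RPKM. C3 ran from 273 RPKM in WT-SD to 74.3 in KO-TGF, and Serping1 from 2.66 to 0.0918.

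The first comparison asked how TGF-β changed complement expression in WT MMC. All 8 genes were lower in WT-TGF than in WT-SD at FDR <5%, against 36.5% of all genes tested lower and 35.9% higher (25.8% and 25.9% in the wider fit), and 5 of them by fold change >2, against 5.67%. For 7 of the 8 the libraries of the groups did not overlap, which held for 38.0% of all genes tested on the lower side and 37.2% on the higher side. The median log2FC of the 8 genes was -1.16, and that of all genes tested -0.01.

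The proteases of the first component fell to below 50% of their level. C1ra was at 97.3, 97.5 and 95.2 CPM in WT-SD and at 38.7, 41.1 and 40.7 CPM in WT-TGF. Its log2FC was -1.27 (SE 0.0380, adjusted p = 3.63e-23). C1s1 was at 528, 520 and 517 CPM in WT-SD and at 242, 261 and 251 CPM in WT-TGF, a log2FC of -1.05 (SE 0.0307, adjusted p = 1.78e-23). Neither gene had a WT-TGF library near the range of WT-SD. C3 dropped most in absolute terms, from 1415, 1389 and 1403 CPM to 506, 544 and 520 CPM, a 2.68-fold decrease (log2FC -1.42, SE 0.0273, adjusted p = 4.29e-28). Cfb, the protease precursor of the alternative pathway, was at 3.14, 3.30 and 3.60 CPM in WT-SD and at 1.84, 2.72 and 1.83 CPM in WT-TGF (log2FC -0.64, adjusted p = 0.000993). The libraries of Cfb did not overlap, and WT-TGF replicate 2 stood above the other two. C4b had 25, 14 and 26 counts in WT-SD and 7, 8 and 6 in WT-TGF, with a log2FC of -1.51 (95% interval -2.21 to -0.81, adjusted p = 5.34e-05).

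Among the regulators, the soluble inhibitor fell more than the membrane proteins. Serping1 was at 6.15, 6.17 and 6.25 CPM in WT-SD and at 2.83, 2.36 and 2.22 CPM in WT-TGF, a log2FC of -1.32 (95% interval -1.62 to -1.02, adjusted p = 2.73e-09). Cd55 was at 9.39, 11.6 and 7.34 CPM in WT-SD and at 8.03, 6.95 and 6.47 CPM in WT-TGF, and the libraries overlapped (log2FC -0.40, 95% interval -0.65 to -0.15, adjusted p = 0.00466). Without WT-SD replicate 2, the highest library, the change of Cd55 was -0.22 and was not called. Cd59a was at 32.8, 31.8 and 29.0 CPM in WT-SD and at 27.6, 28.0 and 26.1 CPM in WT-TGF, a decrease of 1.14-fold (log2FC -0.19, 95% interval -0.30 to -0.09, adjusted p = 0.00139). The interval of Serping1 meets neither that of Cd55 nor that of Cd59a. The summed markers of macrophages, tubular epithelium and endothelium given above were also lower with TGF-β in WT and in KO. Those of the joint list of mesangial and smooth muscle cells were higher. The part of these marker changes in the decreases was not tested. The macrophage sum rested on few genes, mainly Adgre1, Lyz2 and Cd14 in WT, and Cd14 had the most counts in KO. Not all of the list fell in WT: Cx3cr1 went from 2, 3 and 0 counts to 13, 15 and 6. Ptprc (9, 14 and 16 against 20, 17 and 9) overlapped, and C1qa, C1qb and C1qc were not called.

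**Figure D2:**
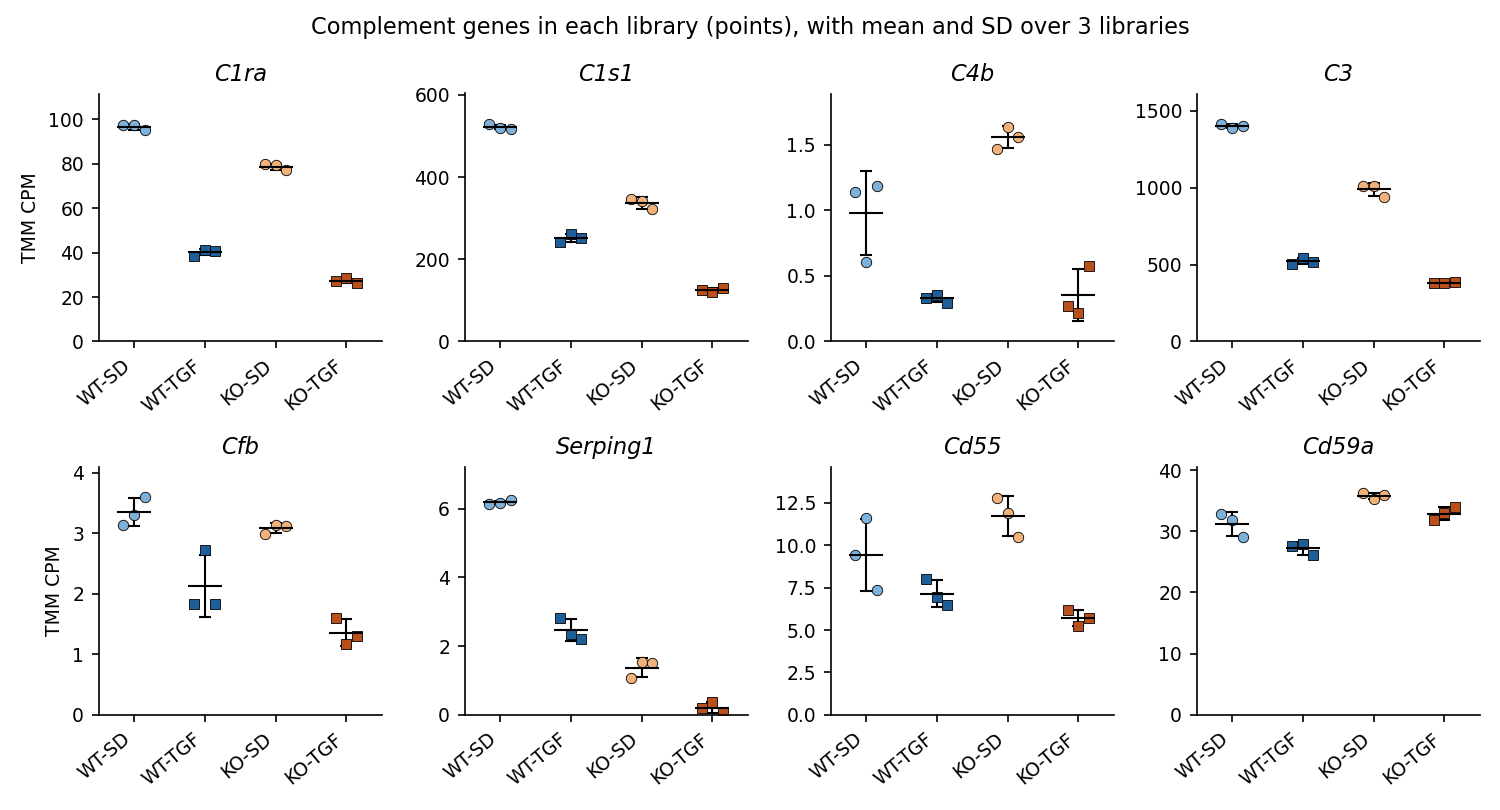
TMM CPM of the 8 complement genes, with 1 point per library and the mean and SD of the 3 libraries of each group, all axes starting at 0. C3 fell from 1402 CPM in WT-SD to 523 in WT-TGF and from 989 in KO-SD to 382 in KO-TGF, while Cd59a stayed between 26.1 and 36.2 CPM in all libraries.

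The same question was asked in KO MMC. All 8 genes were again lower with TGF-β at FDR <5% (39.0% of all genes tested were lower and 35.0% higher, with 28.5% and 23.8% in the wider fit), 7 of them by fold change >2 (9.04% of genes tested). The libraries did not overlap for any of the 8, against 39.2% of all genes on the lower side and 35.1% on the higher side. Their median log2FC was -1.40, against -0.02 for all genes tested. C1ra fell from 79.7, 79.4 and 77.2 CPM to 27.3, 28.5 and 26.2 CPM (log2FC -1.53, SE 0.0425, adjusted p = 4.26e-24). C1s1 fell from 347, 342 and 321 CPM to 126, 120 and 130 CPM, a 2.68-fold decrease (log2FC -1.42, adjusted p = 4.48e-26). C3 fell from 1014, 1011 and 942 CPM to 383, 377 and 386 CPM (log2FC -1.37, adjusted p = 1.21e-27). In all 3 genes the libraries of KO-TGF lay far below those of KO-SD.

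The low genes fell as well. Cfb fell from 2.99, 3.14 and 3.12 CPM to 1.60, 1.17 and 1.31 CPM (log2FC -1.17, 95% interval -1.57 to -0.77, adjusted p = 3.30e-06). C4b had 32, 34 and 34 counts in KO-SD and 5, 4 and 11 in KO-TGF (log2FC -2.10, 95% interval -2.75 to -1.46). Serping1, already low, had 23, 32 and 33 counts in KO-SD and 4, 7 and 1 in KO-TGF, close to the floor of 3 counts (log2FC -2.65, 95% interval -3.44 to -1.87, adjusted p = 2.46e-07). Without KO-TGF replicate 2 the value was -3.29, and without KO-TGF replicate 3 it was -2.18. Cd55 fell from 12.8, 11.9 and 10.5 CPM to 6.20, 5.23 and 5.72 CPM (log2FC -1.04, adjusted p = 2.03e-08). Cd59a was at 36.2, 35.3 and 35.9 CPM in KO-SD and 31.8, 33.0 and 33.9 CPM in KO-TGF, and its small decrease (log2FC -0.12, 95% interval -0.23 to -0.02, adjusted p = 0.0317) was not called without any one of KO-SD replicates 1 and 3 and KO-TGF replicates 1, 2 and 3, nor with DESeq2, the other filters or a fit to these groups alone.

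Whether the response to TGF-β differed between the genotypes was tested as the interaction of genotype and treatment. Of the 8 genes, 4 fell more in KO than in WT (C1ra, C1s1, Cd55 and Serping1) and 0 fell less, against 16.6% of all genes tested with a more negative response in KO and 8.76% with a more positive one (12.5% and 4.80% in the wider fit). The log2 response of C1s1 differed by -0.37 (SE 0.0451, adjusted p = 1.19e-07) and that of C1ra by -0.26 (SE 0.0583, adjusted p = 0.000949). For Cd55 the difference was -0.63 (SE 0.181, adjusted p = 0.00865). The difference for Serping1 was the largest, -1.33 (95% interval -2.26 to -0.41, adjusted p = 0.0238), but rests on the few counts of KO-TGF: without KO-TGF replicate 3, which had 1 count, it was -0.84 and not called, and without KO-TGF replicate 1 it was -1.30 and not called. Without KO-TGF replicate 2 it was -1.96 and called. For C3 the response was of closely similar size, with a difference of 0.05 and a 95% interval of -0.03 to 0.13 (adjusted p = 0.385). The differences of Cfb (-0.53, 95% interval -1.07 to 0.01), C4b (-0.59, -1.64 to 0.46) and Cd59a (0.07, -0.08 to 0.22) did not pass the threshold, and the intervals of Cfb and C4b leave room for differences as large as that of Cd55.

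**Figure D3:**
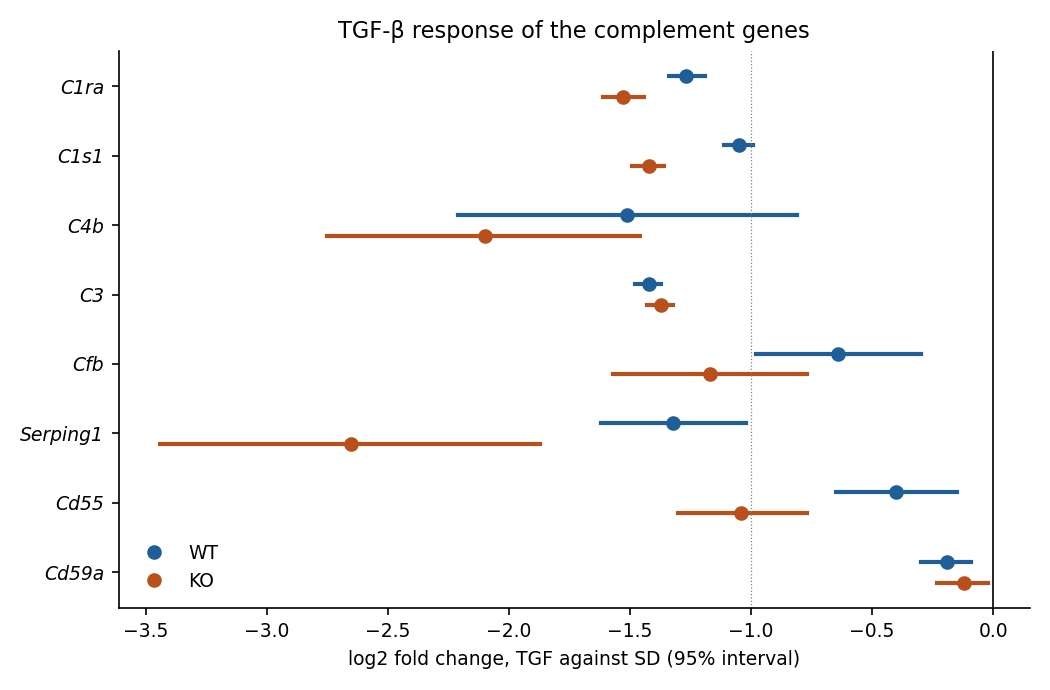
Log2 fold change of TGF against SD for the 8 complement genes in WT and in KO, with 95% intervals from the fit. Filled points passed FDR <5%, and the dotted line marks a 2-fold decrease. All points lie below 0, and C3 nearly coincides in both genotypes at -1.42 and -1.37.

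Levels were then compared between the genotypes under each condition. In SD, 4 genes were lower in KO (C3, C1ra, C1s1 and Serping1), 3 were higher (C4b, Cd55 and Cd59a) and Cfb was not called, against 25.3% of all genes tested lower and 30.6% higher (17.9% and 23.4% in the wider fit). In TGF, 5 were lower (C3, C1ra, C1s1, Cfb and Serping1) and 1 higher (Cd59a), against 27.9% and 27.3% (20.3% and 18.7% in the wider fit). Fold change >2 was passed, on the lower side, by 1 of the 8 in SD (3.12% of all genes) and by 2 in TGF (4.55%). Libraries did not overlap for 5 genes lower and 2 higher in SD (26.9% and 32.2% of all genes) and for 6 lower and 1 higher in TGF (30.9% and 30.7%). The median log2FC of the 8 genes was -0.21 in SD and -0.50 in TGF, and that of all genes tested 0.02 and -0.00. The direction differed between the genes, which are described one by one.

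Serping1 separated the genotypes most. Against 6.15 to 6.25 CPM in WT-SD, KO-SD had 1.06, 1.55 and 1.51 CPM, a log2FC of -2.17 (SE 0.168, adjusted p = 1.66e-12), or 4.50-fold less C1 inhibitor mRNA. In TGF it was 11.4-fold lower in KO (log2FC -3.51, 95% interval -4.18 to -2.83, adjusted p = 1.28e-10), from 2.22 to 2.83 CPM in WT-TGF and 0.0525 to 0.374 CPM in KO-TGF. This size rests on 4, 7 and 1 counts, and the log2FC was -4.15 without KO-TGF replicate 2 and -3.03 without KO-TGF replicate 3. No KO library reached a WT library of the same condition. The summed markers of macrophages, tubular epithelium, endothelium and podocytes given above were also lower in KO, both in SD and in TGF, and their part in this difference was not tested.

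The proteases that C1 inhibitor blocks were lower too, by less. C1s1 had a log2FC of -0.63 in SD (SE 0.0301, adjusted p = 1.37e-17) and of -1.01 in TGF (SE 0.0336, adjusted p = 1.87e-21). C1ra had one of -0.30 in SD (adjusted p = 1.40e-08) and of -0.56 in TGF (adjusted p = 1.10e-11). The libraries of the genotypes did not overlap for either gene. The ratio of C1s1 to C1ra per length was 5.08 to 5.17 in the WT-SD libraries and 3.96 to 4.14 in KO-SD, and 5.88 to 6.06 in WT-TGF and 4.01 to 4.72 in KO-TGF, so it was lower in every KO library than in every WT library. Its absolute size depends on the reads that C1ra and C1rb share. The ratio of C1s1 to Serping1 per length, of protease to inhibitor mRNA, was 61.5 to 63.8 in WT-SD, 63.5 to 84.1 in WT-TGF, 158 to 244 in KO-SD and 238 to 1839 in KO-TGF, where the highest value comes from the library with 1 count of Serping1.

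C3 was lower in KO by a log2FC of -0.50 in SD (SE 0.0266, adjusted p = 1.77e-16) and of -0.45 in TGF (SE 0.0279, adjusted p = 7.53e-15). Cfb did not differ past the threshold in SD (log2FC -0.12, 95% interval -0.43 to 0.19, adjusted p = 0.527). In TGF it was lower in KO by -0.65 (95% interval -1.08 to -0.22, adjusted p = 0.00971), a call that was lost without WT-TGF replicate 2 (-0.43) or KO-TGF replicate 2 (-0.54). C4b was higher in KO-SD by a log2FC of 0.71 (95% interval 0.22 to 1.19, adjusted p = 0.0118), which was 0.45 and not called without WT-SD replicate 2, the library with 14 counts, and was not called by DESeq2. In TGF, the C4b libraries of the genotypes overlapped (0.12, 95% interval -0.81 to 1.04, adjusted p = 0.924).

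Both membrane regulators among the 8 genes were higher in KO-SD. Cd59a was higher in KO in both conditions, by a log2FC of 0.20 in SD (SE 0.0497, adjusted p = 0.00106) and of 0.27 in TGF (SE 0.0531, adjusted p = 6.20e-05), with no overlap of libraries. Cd55 was higher in KO-SD by 0.31 (95% interval 0.08 to 0.54, adjusted p = 0.0189), but the libraries overlapped and the call was lost with DESeq2, with scaling by library size alone and when leaving out WT-SD replicate 3 or KO-SD replicate 1. Under TGF-β its difference was not called (-0.32, 95% interval -0.61 to -0.03, adjusted p = 0.0544), although its libraries did not overlap. With the replicate number as a block it was -0.32 and called, and it was also called with library size alone (-0.44), with no filter and in a fit to the compared groups. Of the fits that left out 1 library, 5 called it, with values from -0.39 to -0.24 over all of them.

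**Figure D4:**
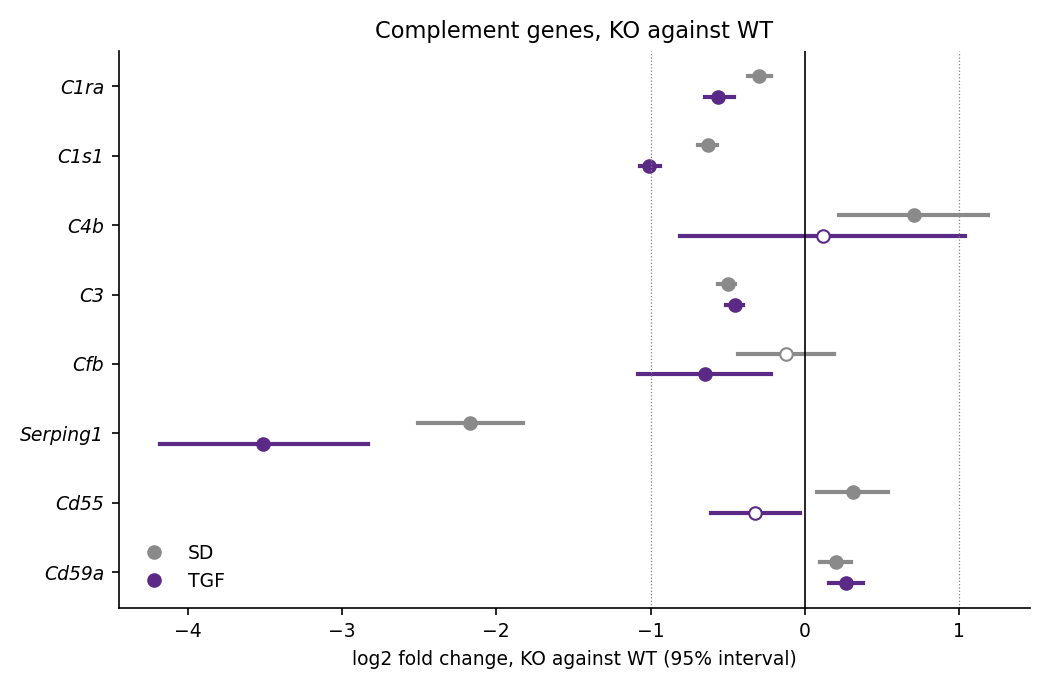
Log2 fold change of KO against WT for the 8 complement genes in SD and in TGF, with 95% intervals from the fit. Filled points passed FDR <5%, and dotted lines mark 2-fold differences. Serping1 lies farthest from 0, at -2.17 in SD and -3.51 in TGF, and Cd59a is above 0 in both conditions.

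Across the 12 libraries, C3 and C1ra moved most alike of any pair of the 8 genes (Pearson r = 0.99 on log2 CPM). C1ra and C1s1 had r = 0.96 and Cfb had r of 0.92 to 0.94 with C3, C1ra and C1s1. Cd59a stood apart, with r from -0.37 (Serping1) to 0.60 (C4b). Among about 10072 genes averaging 5 CPM or more, those most like C3 were Gabarapl1, Ctdspl and Dag1 (r = 0.997 each), those most like C1ra were Col4a5 and Fzd1 (r = 0.998) and Lmo7 (r = 0.997), and those most like C1s1 were Cryab and Arnt2 (r = 0.998) and Vit (r = 0.997). Serping1 was most like Ptprv (0.988), Cyfip2 (0.985) and Fhod3 (0.984), and Cfb like Klhl13 (0.979), Atat1 (0.972) and Lrrc28 (0.971). C4b was most like Dclk2 (0.971), Rcan3 (0.971) and E2f1 (0.970), Cd55 like Hoxb3 (0.981), Tmem18 (0.946) and Zcchc8 (0.939), and Cd59a like Slmap (0.953), Fhl1 (0.939) and Dnajc13 (0.937). These correlations describe the 12 libraries, which share group means of 3 libraries each.

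The wider cascade was read from a list of 49 other complement genes. No count was found in any library for 8 of them and at most 3 counts in any library for 12. Above that level, 21 were under the test limit of RPKM and 8 over it. Of the terminal components, which form the membrane pore, Hc (C5), C6, C7, C8a, C8b and C9 had at most 3 counts in any library, so their expression was not detectable at this depth. Of the 29 genes with more counts, 13 were lower and 1 (C1qbp) higher with TGF-β in WT, and 11 were lower and 3 (C1qbp, Cr1l and Csmd3) higher in KO. Shares over all genes were 36.5% lower and 35.9% higher in WT (25.8% and 25.9% in the wider fit, from which 21 of the 29 were taken), and 39.0% and 35.0% in KO (28.5% and 23.8%), so the number lower in KO was near the share over all genes.

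A soluble regulator and several proteases fell with TGF-β in both genotypes. C4bp, which encodes an inhibitor that binds C4 fragments, went in WT from 20.7 ± 1.22 down to 3.06 ± 0.655 CPM (log2FC -2.76, adjusted p = 1.46e-20). In KO it dropped from 37.1 ± 2.59 CPM down to 2.67 ± 0.105 CPM (log2FC -3.79, adjusted p = 1.36e-24). Its response was larger in KO by -1.03 (adjusted p = 5.34e-05). C1rl, the third gene of the C1r kind in the chromosome 6 stretch, fell by a log2FC of -2.24 in WT and of -2.84 in KO. Masp1, a protease of the lectin pathway, fell by -1.09 in WT and by -1.26 in KO. C8g, the one terminal component gene with above 3 counts, went from 32, 25 and 23 counts to 4, 3 and 5 in WT and from 17, 16 and 24 to 0, 1 and 3 in KO.

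The other regulators differed among themselves. Csmd1, a membrane protein with complement control domains, fell by a log2FC of -2.01 in WT and of -2.24 in KO. Susd4, another such protein, fell by -1.88 in WT and by -1.16 in KO. Cd46, the gene of a membrane cofactor, had a log2FC of -0.44 in WT (adjusted p = 0.107) and fell by -1.28 in KO (adjusted p = 8.20e-06). These 3 genes were under the RPKM limit, and their values are from the wider fit. In KO they rest on few counts. Csmd1 had 19, 9 and 17 in KO-SD and 5, 3 and 0 in KO-TGF. Susd4 had 12, 11 and 16 in KO-SD and 4, 7 and 4 in KO-TGF. Cd46 had 33, 38 and 33 in KO-SD and 12, 14 and 11 in KO-TGF. Cr1l, the rodent membrane regulator Crry, was at 28.4 ± 1.12 CPM in WT-SD, close to its 28.9 ± 1.53 CPM in WT-TGF. In KO it rose from 27.8 ± 1.22 CPM up to 37.0 ± 1.68 CPM (log2FC 0.41, adjusted p = 4.96e-08). With library size alone the log2FC of Cr1l was -0.13 in WT and 0.21 in KO, both called. The difference between the responses was 0.39 (adjusted p = 0.000205). Clu, encoding clusterin, was not called in any of the 5 contrasts, with group means from 13.0 CPM (KO-TGF) to 14.6 CPM (WT-TGF). With library size alone it was called for TGF in KO (-0.34), KO in TGF (-0.30) and the interaction (-0.32), with no filter for TGF in WT (0.18) and the interaction (-0.29), and without WT-TGF replicate 3 for TGF in WT (0.20), KO in TGF (-0.24) and the interaction (-0.34). C1qbp, which encodes a mitochondrial protein that also binds C1q, rose by 0.32 in WT and by 0.27 in KO, the rise in KO being 0.07 and not called with scaling by library size alone.

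**Figure D5:**
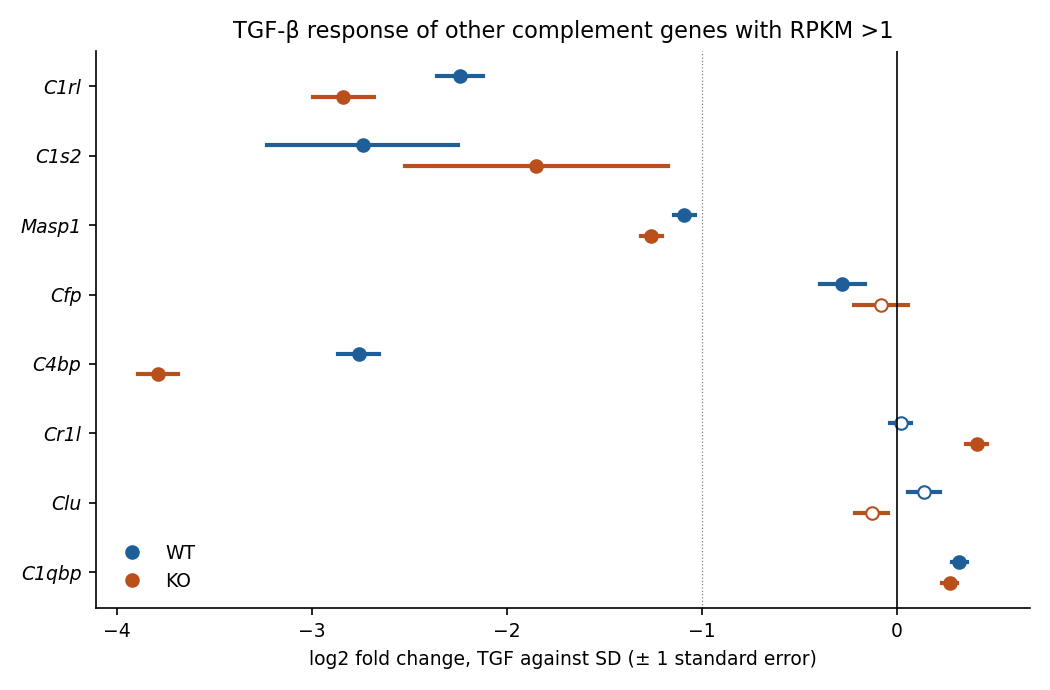
Log2 fold change of TGF against SD in WT and in KO for the 8 other complement genes over the test limit of RPKM, with ± 1 SE. Filled points passed FDR <5%. C4bp fell most in KO, by a log2FC of -3.79, and Cr1l and C1qbp lie above 0 in KO.

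Between the genotypes, 14 of the 29 genes were lower and 3 (Masp1, C4bp and C1qbp) higher in KO under SD, whereas with TGF-β 13 were lower and 2 (Cr1l and C1qbp) higher in KO. Over all genes tested, 25.3% were lower and 30.6% higher in SD and 27.9% and 27.3% in TGF (17.9% and 23.4%, and 20.3% and 18.7%, in the wider fit). Of the 29 genes, C1qa, C1qb, C1qc, C2, C5ar1, Cd59b, Cfi, Itgam and Itgax had above 3 counts only in WT libraries, and Csmd3 only in KO libraries, so these numbers do not describe the whole list. C1qa, C1qb and C1qc, the chains of the recognition molecule of the classical pathway, had between 4 and 14 counts in each WT library and 0 in each KO library, which makes them at least 2.69-fold, 2.77-fold and 2.77-fold lower in KO-SD against a floor of 3 counts in each library. Itgam, a chain of complement receptor CR3, was at 2.22 CPM in WT-SD and at least 15.9-fold lower in KO-SD. Itgb2, the other chain of CR3, had a log2FC of -0.19 in SD (adjusted p = 0.534) and was lower in KO by -1.12 in TGF (adjusted p = 0.000478), and Itgax was not called in either condition. C3ar1, the receptor of the C3 fragment C3a, was lower in KO by a log2FC of -1.84 in SD (adjusted p = 8.80e-10) and of -1.43 in TGF (adjusted p = 0.00130). Itgam, Itgb2, Itgax and C3ar1 were under the RPKM limit, and their tests are from the wider fit. In TGF, Itgb2 had 22, 32 and 31 counts in WT and 14, 8 and 12 in KO. C3ar1 had 35, 41 and 39 counts in WT-SD, 11, 10 and 9 in KO-SD, 10, 20 and 20 in WT-TGF and 4, 8 and 4 in KO-TGF. The C1q genes are also on the macrophage list, whose summed level was lower in KO in both conditions, and its part in these differences was not tested.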

How the data were processed

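RNA-seq of 12 MMC libraries was analysed. The values deposited by the authors are raw counts per gene and library, without normalization. According to the study's methods, mRNA libraries were sequenced single-end, aligned to mm10 with TopHat and assigned to RefSeq genes by HTSeq-count with the strand taken into account and poor alignments left out. The alignment was not repeated. Reads given to no gene (10.3% to 15.4% of a library), to several places (11.2% to 11.7%) or to overlapping genes (0.225% to 0.274%) were left out of library sizes.

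Gene lengths were taken as merged exons of GENCODE vM21 and matched for all but 513 of 25230 genes. Following the study's methods, a gene was kept if RPKM was >1 in 1 or more libraries, and counts were normalized by TMM. All 12 libraries entered 1 fit with a mean per group in edgeR (version 4.0.16, run in R version 4.3.3), tested by quasi-likelihood, 5 contrasts and Benjamini-Hochberg adjustment. Standard errors and 95% intervals are from that fit. An exact permutation test of 3 libraries against 3 cannot go below p = 0.1 and was not used. A floor of 3 counts, 0.130 to 0.160 CPM, served as the limit of detection and as the bound for groups without counts. It does not cover the counting error of values above it.

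The 8 genes, the 49 other complement genes, the marker lists and the motifs were chosen with earlier results of these data known. The text names the 8 genes, other complement genes by their calls, and for each of the 8 the 3 genes most correlated over 12 libraries (log2 CPM, prior count 2). C8g, Itgam, Itgb2, Itgax, C3ar1, Csmd1, Susd4 and Cd46 among the other complement genes were picked after their values were seen, and 1 further complement gene is not reported here. Replicates of a group differed by more than sampling noise (chi-square per degree of freedom 1.33 to 5.20). The alternatives were no TMM (library size alone), DESeq2 (version 1.42.0, independent filtering off), CPM >1 in 3 or more libraries as the filter, no filter at all, a fit to the compared groups only, a block by replicate number, and leaving out each library. Promoters and motif searches used RefSeq sequences of GRCm38.p6.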

Additional observations from a re-analysis of the deposited data

Results flagged for a closer look

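The response to TGF-β differed between the genotypes, by the interaction in edgeR's quasi-likelihood test at FDR <5%, for 4 of the 8 complement genes. The log2 response in KO minus that in WT was -0.26 for C1ra, -0.37 for C1s1, -0.63 for Cd55 and -1.33 for Serping1, in each case a larger decrease in KO. Those of C1ra, C1s1 and Cd55 were called under every alternative run, and that of Serping1 under all but the fits without KO-TGF replicate 1 or 3. Among the other complement genes over the RPKM limit, the response was more negative in KO for C4bp (-1.03) and more positive for Cr1l (0.39).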

How the results depend on the processing

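Of 712 values of the 8 genes under alternatives, 681 kept direction and side of the threshold, 20 lost a call, 9 gained one and 2 changed sign. The latter were C4b in KO-TGF against WT-TGF, -0.01 with library size alone and -0.43 without KO-TGF replicate 3 (-0.43 to 0.37 over libraries left out), never called. Values from fits that left out a library of neither compared group could hardly move, and for C4b the fit with no filter is the main one, so the number kept is partly fixed in advance. Library size alone moved the median of all genes by -0.15 (TGF in WT), -0.20 (TGF in KO), -0.07 (KO in SD) and -0.12 (KO in TGF), and the cause was not tested. DESeq2 left 1 of the 8 genes higher in KO-SD in place of 3. Leaving out single libraries gave 2 to 3 for this number, 7 to 8 genes lower with TGF-β in each genotype, 4 to 6 lower in KO-TGF and 3 to 4 with a more negative response in KO. Among the other complement genes, the number higher with TGF-β in WT was 2 with no filter and 1 to 2 when a library was left out. The number with a more negative response in KO, 1, was 4 with library size alone, 3 with no filter and 1 to 4 when a library was left out, and the number higher in KO-TGF, 2, was 1 with library size alone and 2 to 3 when a library was left out. Of 712 values of 8 of these genes, 9 changed sign. With library size alone they were Cr1l (-0.13, called) and Clu (-0.01, not called) for TGF in WT and Masp1 (-0.00, not called) for KO in TGF. With no filter it was Cr1l for KO in SD (0.00). The others are given as ranges over libraries left out. They were Cr1l for TGF in WT (-0.01 to 0.07), Cr1l for KO in SD (-0.06 to 0.01), Cfp for TGF in KO (-0.12 to 0.02), C1s2 for KO in TGF (-1.30 to 0.05) and C1qbp for the interaction (-0.07 to 0.00). The cause of these moves was not tested. Same-numbered libraries of different groups had deviations that correlated between -0.066 and 0.180 over genes, so the numbers were not taken to pair libraries. With the replicate block, Cd55 in KO-TGF against WT-TGF (-0.32) was called, and no other call among the 8 genes changed. Depth limits C4b and, in KO-TGF, Serping1, which have few counts.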

Other observations

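C1s2, the copy of C1s1 on chromosome 6, differed between libraries of 1 group by more than C1s1 did. In WT-SD it had 21, 104 and 88 counts against 11587, 11970 and 11346 of C1s1, and in KO-SD it had 14, 54 and 15 counts against 7543, 7088 and 6997. Replicate 2 was highest in both groups.

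CD59 and CD55 mRNA moved apart within the KO cultures. The ratio of Cd59a to Cd55 per length was 7.58, 7.92 and 9.20 in KO-SD and 13.7, 16.9 and 15.9 in KO-TGF, whereas the WT libraries lay at 9.35, 7.37 and 10.6 in SD and 9.21, 10.8 and 10.8 in TGF.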
